A study of Mus musculus with 12 samples.

Results

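Rgs5, Pdgfrb, Acta2, Tagln, Myh11, Cspg4 and Notch3 are genes used to mark the mural cells of blood vessels, which are the pericytes of capillaries and the smooth muscle cells of larger vessels. They were taken by gene symbol from the deposited expression table of mouse dorsal root ganglia (DRG), and each of the 7 symbols matched 1 of the 24490 genes listed there. The 7 genes did not behave as a single set of markers. Acta2, Myh11, Cspg4 and Notch3 fell to at most 21.7% of their unsorted mean in each sorted sample, Tagln was listed at 0 there, Pdgfrb stayed at 56.7% to 78.3% of its unsorted level, and Rgs5 stood above its unsorted level in each of the 4 sorted samples.

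RNA was sequenced from 12 samples of ganglia of adult male C57Bl/6 mice, in 3 groups of 4 replicates that the labels call biological. Intact ganglia were snap frozen, and each intact sample came from 1 mouse. Unsorted samples were ganglia dissociated with enzymes, from 2 mice each, and MACS-sorted samples were dissociated cells from 8 mice each after magnetic sorting. In that sort, cells bound by a biotinylated antibody cocktail against non-neuronal cells were held on a magnetic column and the cells that ran through were kept; the antigens of the cocktail are not given in the sources used here. Levels are in FPKM, fragments counted for a gene and scaled to its transcript length and to the mapped fragments of the library, as the authors deposited them. The table holds no read counts, and the spacing of its lowest values put the depth at 16300000 to 19300000 fragments for intact, 15700000 to 18500000 for unsorted and 13600000, 15700000, 17200000 and 14500000 for sorted replicates 1 to 4, assuming fragments of 150 bases.

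Several samples stood apart before any comparison. Intact replicate 1 carried skeletal muscle genes, with the skeletal muscle actin Acta1 at 647 FPKM against 3.58 to 16.4 FPKM in the other intact samples. The red blood cell list, mostly alpha-globin and beta-globin genes, summed to 1678, 2532, 12540 and 15360 FPKM in sorted replicates 1 to 4 and to at most 400 FPKM in any unsorted sample. Sorted replicate 2 had the lowest summed endothelial level, and sorted replicate 4 had the highest summed levels of endothelial, fibroblast and satellite glial genes among the sorted samples. Unsorted replicates 1 and 2 were closer to each other than any other pair of replicates, with squared differences 2.47 times those expected from counting alone, against 4.9 or more for every other pair. They were kept as separate samples.

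Mural cells lie against the endothelial tube of a vessel and share its basement membrane. Endothelial cells release platelet-derived growth factor B, which acts through the receptor PDGFRβ, the product of Pdgfrb, to recruit them, and endothelial Jagged1 acts through Notch3 to keep arterial smooth muscle mature. Smooth muscle cells contract with smooth muscle actin (Acta2) and smooth muscle myosin (Myh11), to which transgelin (Tagln) adds actin binding. Rgs5 shortens signalling by G protein-coupled receptors and Cspg4 encodes the NG2 proteoglycan of the cell surface. Capillaries run through the DRG among the neuronal cell bodies.

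On mouse assembly mm10, with GENCODE release 21 giving what lies there, the 7 genes lie on 6 chromosomes, with Tagln at chr9:45929628-45936058 and Cspg4 at chr9:56865104-56899870. Rgs5 lies at chr1:169655501-169693526, Acta2 at chr19:34240336-34255373 and Myh11 at chr16:14194527-14291408. Pdgfrb lies at chr18:61045150-61085067 and Notch3 at chr17:32120893-32166852. Tagln, on the minus strand, overlaps the last 99 bases of Pcsk7 on the plus strand and 3627 bases of the antisense gene Gm48529, and Notch3 overlaps 20951 bases of the antisense gene Gm17276. The other 5 genes overlap no other annotated gene.

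In intact ganglia Rgs5 was the most abundant of the 7 genes per length of transcript. Its level was 49.0, 63.7, 52.8 and 61.6 FPKM in intact replicates 1 to 4. Tagln followed at 22.6, 13.8, 16.2 and 16.2 FPKM, then Pdgfrb at 5.62, 5.73, 6.81 and 5.95 FPKM, and Acta2 at 4.81, 3.55, 4.65 and 5.21 FPKM. None of these genes overlapped its neighbour in that order. Cspg4, Myh11 and Notch3 came last, with medians of 1.73, 1.43 and 1.56 FPKM and overlapping ranges.

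The order changed with preparation. In unsorted samples Acta2 (6.13 to 9.97 FPKM) stood beside Pdgfrb (5.45 to 6.72 FPKM) with overlapping ranges, and Myh11 (3.17 to 4.51 FPKM) stood above Notch3 (2.41 to 2.79 FPKM) and Cspg4 (1.95 to 2.07 FPKM) with no overlap between neighbours. In sorted samples Rgs5 remained first at 50.8 to 119 FPKM and Pdgfrb came next at 3.41 to 4.71 FPKM, separated from each other and from the rest. The other 5 genes were below 1 FPKM in every sorted sample and their ranges overlapped or touched.

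**Figure D1:**
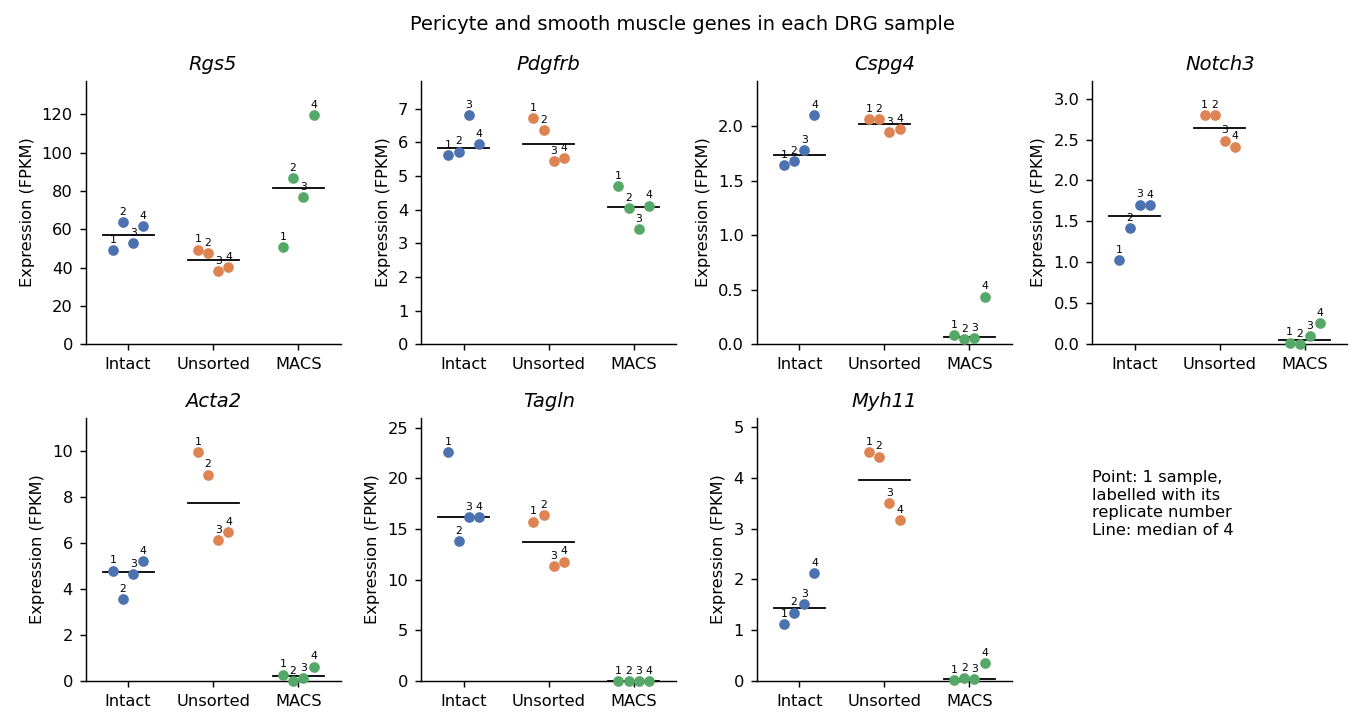
Level in FPKM (vertical axes, each from 0) of the 7 mural cell genes in each sample, by preparation on the horizontal axis, with the replicate number beside each point and a line at the group median. The 5 genes Acta2, Tagln, Myh11, Cspg4 and Notch3 lie at or near 0 in all 4 sorted samples, while Rgs5 lies between 50.8 and 119 FPKM there.

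The study compared sorted with unsorted cells to identify nociceptor genes. Here the comparison sets the mural gene levels after removal of cells bound by the cocktail beside those without it. The groups also differ in the mice per sample and in the handling during the sort, which cannot be told apart from that removal. The smooth muscle genes fell to below 1 FPKM. Acta2 was at 9.97, 8.98, 6.13 and 6.47 FPKM in unsorted replicates 1 to 4 and at 0.273, 0, 0.120 and 0.622 FPKM in sorted replicates 1 to 4. Myh11 was at 4.51, 4.42, 3.50 and 3.17 FPKM unsorted and at 0.0112, 0.0585, 0.0354 and 0.357 FPKM sorted. Tagln was at 15.7, 16.3, 11.3 and 11.8 FPKM unsorted and listed at 0 in all 4 sorted samples. No sorted sample reached the level of any unsorted sample for these 3 genes, and sorted replicate 4 held the most Acta2 and Myh11.

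A listed 0 is not proof of absence, since Trmt112, a gene that every cell uses, is listed at 0 in all intact and unsorted samples and at 6.19 to 8.11 FPKM in the sorted ones. Pcsk7, which overlaps the end of Tagln, was at 5.31 to 6.32 FPKM in sorted and 4.38 to 5.61 FPKM in unsorted samples. At the estimated depth 1 fragment would give Tagln 0.0402 to 0.0507 FPKM in a sorted sample. No fold change is given for Tagln against samples all at 0. The sorted levels of Acta2 amount to an estimated 7, 0, 4 and 17 fragments in replicates 1 to 4, and those of Myh11 to 1, 6, 4 and 33 fragments.

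Cspg4 and Notch3 followed the smooth muscle genes. Cspg4 was at 2.06, 2.07, 1.95 and 1.97 FPKM unsorted and at 0.0825, 0.0476, 0.0577 and 0.436 FPKM sorted, and Notch3 at 2.79, 2.79, 2.49 and 2.41 FPKM unsorted and at 0.0186, 0, 0.0950 and 0.260 FPKM sorted. For each of the 2 genes every sorted sample lay below every unsorted sample, and sorted replicate 4 was again the highest of the sorted samples. As a share of the unsorted mean, sorted replicates 1 to 4 kept 4.1%, 2.37%, 2.87% and 21.7% of Cspg4. They kept 0.709%, 0%, 3.62% and 9.92% of Notch3, against 3.46%, 0%, 1.52% and 7.89% of Acta2 and 0.288%, 1.5%, 0.908% and 9.16% of Myh11.

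Pdgfrb, the growth factor receptor, fell much less. It was at 6.72, 6.37, 5.45 and 5.53 FPKM in unsorted replicates 1 to 4 and at 4.71, 4.04, 3.41 and 4.12 FPKM in sorted replicates 1 to 4, or 6.02 ± 0.625 against 4.07 ± 0.531 FPKM (mean ± SD, n = 4 each). Every sorted sample was below every unsorted one, but each kept more than 50% of the unsorted mean: 78.3%, 67.2%, 56.7% and 68.5%. These levels rest on an estimated 309 to 338 fragments a sample, and sorted replicate 4, highest for the 4 preceding genes with a sorted level above 0, was not the highest for Pdgfrb.

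Rgs5 rose. It was at 49.3, 47.5, 38.3 and 40.0 FPKM in unsorted replicates 1 to 4 and at 50.8, 86.5, 76.6 and 119 FPKM in sorted replicates 1 to 4, or 43.8 ± 5.44 against 83.4 ± 28.4 FPKM (mean ± SD, n = 4 each). Sorted replicates 1 to 4 stood at 116%, 198%, 175% and 273% of the unsorted mean, and the lowest sorted sample was just above the highest unsorted one. The sorted samples varied more among themselves than the unsorted samples did.

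Differences were tested with limma on log2(FPKM + 0.1) over the 12038 genes that averaged 1 FPKM or more, and a gene passed at an adjusted p below 0.05. All 7 mural genes were tested and passed, 6 lower, Tagln among them by its listed zeros, and 1 higher in sorted samples, where 27.7% of all tested genes passed lower and 18.8% passed higher. Acta2, Tagln, Myh11, Notch3 and Cspg4 entered the test through their unsorted levels alone, with means over the 8 samples of 4.07, 6.9, 2.01, 1.36 and 1.08 FPKM, so the count of 6 was favoured by the filter and is no support for a fall. The log2 differences, sorted minus unsorted, were -4.82 for Acta2 (SE 0.52, adjusted p = 6.13e-05), -4.44 for Myh11 (SE 0.44, adjusted p = 3.48e-05) and -4.00 for Notch3 (SE 0.43, adjusted p = 5.63e-05). Those for Cspg4 and Pdgfrb were -3.27 (SE 0.44, adjusted p = 2.29e-04) and -0.56 (SE 0.12, adjusted p = 0.00448). Rgs5 differed by 0.87 (SE 0.22, adjusted p = 0.00928). The filter looked at the mean of all 8 samples without regard to group, and with no filter the adjusted p of Acta2, Myh11, Notch3 and Cspg4 was 1.20e-04, 5.23e-05, 5.73e-05 and 2.14e-04. No p is given for Tagln, whose sorted values are a constant listed 0 with no spread. The median over all tested genes was -0.04.

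Under the study's own criteria, which also ask for a log2 ratio of means beyond 0.5 and for more than 5 FPKM on average in whichever group is higher, Acta2, Pdgfrb and, by its listed zeros, Tagln were called lower and Rgs5 was called higher. Of all tested genes, 12.5% were called lower and 8.15% higher. Myh11, Cspg4 and Notch3 could not meet the level criterion, since none of them reached 5 FPKM in any sample. The call of Pdgfrb was lost without sorted replicate 3 and under quantile normalization (-0.32, adjusted p = 0.0348), which left 2 members called lower. With a log2 ratio beyond 1 as the criterion the calls of Pdgfrb and Rgs5 were lost, so 2 members were called lower and 0 higher. With the 5 FPKM filter Acta2 was not tested and 2 members were called lower. The fitted differences of the genes with sorted levels near 0 depend on the 0.1 FPKM added: with 1 FPKM in its place Acta2 differed by -2.83 and Myh11 by -2.14. P-values here measure the spread between samples. In pooled tissue or cells the number of mural cells and the RNA in each of them cannot be told apart. Nor can RNA of the same genes from other cells, or a change in the rest of the library, to which FPKM is scaled.

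**Figure D2:**
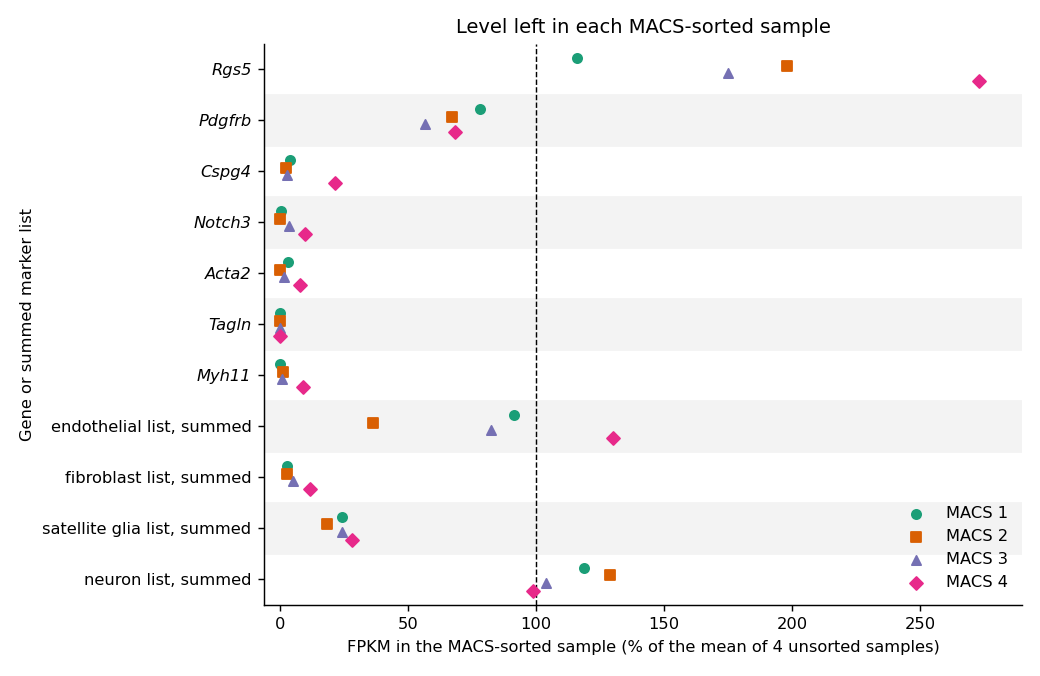
Level in each of the 4 sorted replicates as a percent of the unsorted mean (horizontal axis) for the 7 mural cell genes and for the summed levels of 4 marker lists, with a dashed line at 100%. Rgs5 lies above 100% in all 4 replicates and Pdgfrb between 56.7% and 78.3%, while the remaining 5 genes lie at or below 21.7%.

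Of the further pericyte genes, only 2 of the 12 on the list, Vtn and Mcam, were tested. Both fell, Vtn to near 0 and Mcam by about as much as Pdgfrb. Vtn, which encodes vitronectin, was at 7.62, 7.48, 3.14 and 3.98 FPKM unsorted and at 0.0466, 0, 0.110 and 0.217 FPKM sorted, with a log2 difference of -4.90 (SE 0.43, adjusted p = 1.80e-05). Vtn entered the test through its unsorted levels alone, and no p without the filter is given for it. Its p therefore adds no support beyond these levels. Mcam, an adhesion molecule of vessels that other cells also carry, was at 59.7 to 71.8 FPKM unsorted and at 28.7, 48.4, 37.7 and 47.2 FPKM sorted, a log2 difference of -0.67 (SE 0.16, adjusted p = 0.00590). The list's median difference was -2.79, over 2 genes.

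The other pericyte genes were low throughout. Kcnj8, a subunit of the ATP-sensitive potassium channel, was at 0.499 to 0.821 FPKM unsorted and at 0, 0, 0 and 0.135 FPKM sorted, and its partner Abcc9 was at 0.825 to 0.941 FPKM unsorted and 0.0101 to 0.0957 FPKM sorted. The pericyte gene Higd1b was listed at 0 in sorted replicates 1 to 3 and at 0.874 FPKM in sorted replicate 4. Of these 3 genes, each sorted level was below every unsorted level except that of Higd1b in sorted replicate 4. Ndufa4l2 was listed at 0 in all 12 samples. The remaining 6 genes of the list, Cox4i2, Anpep, Foxs1, Tbx18, Gucy1a3 and Gucy1b3, were also below the 1 FPKM filter. Every sorted level of Cox4i2, Anpep, Gucy1a3 and Gucy1b3 was below every unsorted one. Tbx18 in sorted replicate 4 (0.195 FPKM) was above its unsorted range of 0.0965 to 0.163 FPKM. Foxs1 in sorted replicates 1 and 4 (0.194 and 0.241 FPKM) lay within its unsorted range of 0.168 to 0.666 FPKM. Without sorted replicates 3 and 4 Anpep, Gucy1a3 and Gucy1b3 reached the filter and passed lower. They reached it through their unsorted levels alone, so these passes are no support for a fall.

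Of 14 further genes of the contractile apparatus, 8 were tested, 6 fell and 2 rose, with a median difference of -2.55. Myl9, the regulatory light chain of smooth muscle myosin, was at 15.5, 16.9, 11.3 and 14.5 FPKM unsorted and at 0.163, 0.703, 0.194 and 1.74 FPKM sorted (log2 difference -4.64, SE 0.55, adjusted p = 1.03e-04). Caldesmon (Cald1) differed by -3.39 (SE 0.38, adjusted p = 7.57e-05), smoothelin (Smtn) by -2.90 (SE 0.31, adjusted p = 6.09e-05), and phospholamban (Pln), the myosin kinase Mylk and the tropomyosin Tpm2 fell as well. Myl9, Pln, Mylk and Tpm2 averaged less than 1 FPKM in sorted samples and entered the test through their unsorted levels alone. Their passes add no support beyond the levels. The genes that rose were Kcnmb1, the beta subunit of the large-conductance calcium-activated potassium channel, at 12.8 to 17.1 FPKM sorted against 8.41 to 9.73 FPKM unsorted, and the tropomyosin Tpm1, at 165 to 208 against 131 to 140 FPKM. Calponin (Cnn1) was listed at 0 in 3 sorted samples and at 0.0953 FPKM in sorted replicate 3, and Actg2, the enteric smooth muscle actin, was listed at 0 in all 4. Des and Lmod1, also untested, were lower in every sorted than in any unsorted sample. Synpo2 was not lower, averaging 0.755 FPKM sorted against 0.717 FPKM unsorted. Itga8 in sorted replicate 4 (0.325 FPKM) lay within its unsorted range of 0.296 to 0.462 FPKM. Among the smooth muscle regulators, 0 of 5 tested genes passed with limma and 1 had an unadjusted p below 0.05, while without sorted replicate 2 Mkl1 passed lower (-0.32, adjusted p = 0.0205). Myocardin (Myocd), the coactivator that drives the contractile program, was at 0.110 to 0.212 FPKM unsorted and at 0, 0, 0.0475 and 0 FPKM sorted.

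In the Notch pathway 9 of 11 tested genes passed lower and 2 did not pass, with a median difference of -1.93. Hey2, Heyl, Jag1, Notch1 and Notch2 averaged less than 1 FPKM in sorted samples and entered the test through their unsorted levels alone. The counts and medians of lower genes given for this and the other lists describe the tested genes and are no support for a fall of a list, since a gene near 0 in the sorted samples is tested only when it is high in the other group. For the same reason the p of a single list gene that entered in this way adds no support beyond its levels. Hey2 and Heyl, transcriptional repressors that Notch signalling switches on in vessels, differed by -4.26 (SE 0.33, adjusted p = 8.24e-06) and -3.79 (SE 0.39, adjusted p = 4.18e-05). Jag1, the ligand, was at 5.39 to 6.70 FPKM unsorted and 0.235 to 1.28 FPKM sorted, and the receptors Notch1 and Notch2 fell by 3.29 and 3.44 on the log2 scale. The ligands Jag2 and Dll4 did not pass, and Rbpj, the DNA-binding partner of Notch, passed at -0.52 but not under quantile normalization (-0.15, adjusted p = 0.247). In the PDGF pathway 1 of 4 tested genes passed, the ligand Pdgfc at -3.64 (SE 0.38, adjusted p = 4.65e-05), with a list median of -0.67. Pdgfc averaged 0.0786 FPKM sorted and also entered the test through its unsorted levels alone. Pdgfb, the endothelial ligand of Pdgfrb, was at 3.29 to 3.98 FPKM unsorted and at 2.39, 0.795, 2.85 and 2.76 FPKM sorted. It did not pass with all samples (-0.85, adjusted p = 0.0700) and passed without sorted replicate 2 (-0.44, adjusted p = 0.0190), without sorted replicate 4 (adjusted p = 0.0478) and without sorted replicates 3 and 4 (adjusted p = 0.0186).

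Endothelial genes, from the cells that mural cells surround, differed little between sorted and unsorted samples beyond the spread of the sorted ones. Of the 12 endothelial genes tested, 1 fell (Vwf, -1.18, SE 0.28, adjusted p = 0.00627) and 11 did not pass. On the deposited scale all 12 differences were below 0, with a list median of -0.48, and without sorted replicate 2 Cldn5 passed higher (0.57, adjusted p = 0.0220). Egfl7 passed lower without sorted replicate 4 (-0.46, adjusted p = 0.00177) and without sorted replicates 3 and 4 (-0.49, adjusted p = 0.00481), which made 2 genes lower. No test compared the endothelial with the mural genes. The list summed to 118, 115, 95.1 and 100.0 FPKM unsorted and to 98.0, 39.1, 88.4 and 139 FPKM sorted, which is 91.6%, 36.5%, 82.6% and 130% of the unsorted mean in sorted replicates 1 to 4. Egfl7 was the most abundant in unsorted samples and Cldn5 in sorted replicates 1, 3 and 4, and no endothelial gene was listed at 0 in any sample. Rgs5 and the endothelial sum were both highest in sorted replicate 4, while Rgs5 was lowest in sorted replicate 1 and the endothelial sum in sorted replicate 2.

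Markers of the other cell types did not all move the same way between unsorted and sorted samples. Fibroblast genes fell in 6 of 7 tested, and their sum went from 359, 352, 180 and 248 FPKM unsorted to 7.86, 8.53, 15.03 and 34.3 FPKM sorted, with Dcn the most abundant and Dpt listed at 0 in all 4 sorted samples. Satellite glial genes fell in 5 of 5, and their sum went from 515, 496, 376 and 425 FPKM to 109, 84.3, 110 and 128 FPKM. Fabp7 led the unsorted sum and Glul made up 82.3 to 111 FPKM of each sorted sum, where Fabp7 was at 1.21 to 10.8 FPKM and the median gene kept 0.682%, 0.965%, 0.895% and 4.11% of its unsorted mean. Macrophage genes fell in 2 of 2 tested, from 30.1, 32.6, 15.9 and 18.1 FPKM to 1.79, 0.726, 0.631 and 3.19 FPKM, Lyz2 being the most abundant unsorted, and the 1 tested gene of the skeletal muscle list, Pvalb, which also marks large sensory neurons, fell by 3.68. Pvalb made up 11.1, 1.68, 7.73 and 10.6 FPKM of that list's sorted sums of 13.2, 3.90, 9.36 and 13.9 FPKM.

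Red blood cell genes rose in 7 of 7 tested entries, which are 6 genes since Hba-a2 has 2 entries, and neuronal genes rose in 4 and fell in 2 of 10. Neuronal genes rose in 7 of 10 without sorted replicate 4, or without sorted replicates 3 and 4, and in 6 with size factors or with red blood cell genes removed. The neuronal sum, led by Uchl1, was 5451, 5445, 5714 and 5324 FPKM unsorted and 6521, 7073, 5698 and 5434 FPKM sorted. The part of these other cell types in the levels of the mural genes was not tested. Sorted replicate 4 held the highest sorted level of 5 of the 6 mural genes above 0 (83.3%), of 11 of 12 endothelial, 8 of 8 fibroblast and 5 of 5 satellite glial genes, and of 0 of 10 neuronal genes. It was the highest for 8 of 11 further pericyte genes (72.7%), 9 of 13 Notch pathway genes, 6 of 13 further contractile genes (46.2%), 1 of 6 smooth muscle regulators (16.7%), 6 of 8 macrophage genes and 6 of 7 red blood cell entries. Over all genes that averaged 1 FPKM or more, replicate 4 was the highest sorted sample for 3603 of 12229 (29.5%).

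Without sorted replicate 4 the 7 genes kept their directions: Cspg4 differed from unsorted by -3.71, Myh11 by -4.89, Notch3 by -4.36, Acta2 by -5.28 and Rgs5 by 0.68 (adjusted p = 0.0119). Without sorted replicates 3 and 4, the samples with the most haemoglobin transcripts, Rgs5 differed by 0.61 (adjusted p = 0.0447) and Pdgfrb by -0.45, and the call of Pdgfrb under the study's criteria was lost.

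Unsorted against intact ganglia sets the dissociated tissue beside the undisturbed one, and the groups also differ in the mice per sample, which cannot be told apart from dissociation. The mural genes were not depleted as a set: Acta2, Myh11 and Notch3 rose, Rgs5 fell slightly, and Pdgfrb, Tagln and Cspg4 did not pass. Acta2 averaged 4.56 ± 0.711 FPKM in intact and 7.89 ± 1.88 FPKM in unsorted samples (mean ± SD, n = 4 each), and every unsorted sample was above every intact one. Myh11 was at 1.12, 1.34, 1.52 and 2.12 FPKM intact, or 1.53 ± 0.429 against 3.90 ± 0.665 FPKM unsorted. Notch3 was at 1.03, 1.42, 1.70 and 1.70 FPKM intact, or 1.46 ± 0.320 against 2.62 ± 0.201 FPKM. The intact and unsorted ranges of these 3 genes did not overlap, with an exact two-sided permutation p of 0.0286 for each, the smallest that 4 against 4 samples allow.

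With limma over 12392 genes, 3 of the 7 mural genes passed higher and 1 passed lower, where 14.8% of all tested genes passed higher and 7.79% lower. The log2 differences, unsorted minus intact, were 0.76 for Acta2 (SE 0.18, adjusted p = 0.0189), 1.32 for Myh11 (SE 0.20, adjusted p = 0.00397) and 0.82 for Notch3 (SE 0.17, adjusted p = 0.0110). Acta2 alone met the study's criteria, so 1 member was called higher (4.29% of all tested genes) and 0 were called lower with limma (2.76% of all tested genes), where 1 member had an unadjusted p below 0.05 on the lower side. The median was 0.16 over the 7 genes and 0.01 over all tested genes. The pass of Acta2 was lost without unsorted replicate 2 (adjusted p = 0.0543), with unsorted replicates 1 and 2 averaged (0.0502) and in a fit of all 12 samples (0.275), in which Notch3 did not pass either (0.140).

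Rgs5 was at 49.0 to 63.7 FPKM intact and 38.3 to 49.3 FPKM unsorted, and the ranges overlapped in the highest unsorted and the lowest intact sample. Its difference of -0.37 passed narrowly (SE 0.12, adjusted p = 0.0486), missed the exact permutation test (p = 0.0571) and was lost in 13 of 19 alternative settings. Pdgfrb differed by -0.00 (95% interval -0.22 to 0.22, adjusted p = 0.982), with 6.03 ± 0.538 FPKM in intact samples. Cspg4 differed by 0.16 (95% interval -0.10 to 0.41, adjusted p = 0.336) and Tagln by -0.31 (95% interval -0.70 to 0.08, adjusted p = 0.218).

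Ratios within a sample were taken for 3 pairs of members, each with a gene that rose over Rgs5 or Pdgfrb. They describe these pairs alone, since Tagln and the further contractile genes Myl9 and Smtn each differed by -0.31 without passing and the pericyte gene Mcam rose. The log2 ratio of Acta2 to Rgs5 was -3.32, -4.13, -3.48 and -3.54 in intact replicates 1 to 4 and -2.30, -2.39, -2.63 and -2.61 in unsorted replicates 1 to 4. That is a rise of 1.14, and every unsorted sample had the higher ratio. The ratio of Myh11 to Pdgfrb rose by 1.32, from -1.95 ± 0.344 to -0.62 ± 0.117 (mean ± SD of the log2 ratio, n = 4 each), and that of Notch3 to Rgs5 by 1.20, from -5.20 ± 0.267 to -4.01 ± 0.0852. For each of the 3 ratios the groups did not overlap and the exact two-sided permutation p was 0.0286, also after Benjamini-Hochberg adjustment over the 3. That is no separate evidence, since each ratio restates the differences of its 2 genes, 2 of the 3 share Rgs5, and the pairs were chosen with earlier results known.

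Endothelial genes rose alongside Acta2, Myh11 and Notch3. They did so in 10 of 12 tested, 8 of them called, with a median difference of 0.92, and their sum went from 67.1, 56.9, 63.7 and 63.1 FPKM intact to between 95.1 and 118 FPKM unsorted. Flt1, a receptor for vascular endothelial growth factor, rose by 1.51 (SE 0.11, adjusted p = 1.91e-04) and the tight junction gene Cldn5 by 1.27 (SE 0.14, adjusted p = 0.00160). Notch pathway genes rose in 6 of 10 tested, with a median of 0.36, among them Jag1 at 0.77 (SE 0.09, adjusted p = 0.00200) and Notch1 at 0.69 (SE 0.13, adjusted p = 0.00943). In the PDGF pathway Pdgfb and Pdgfc rose by 0.70 and 0.90, and Pdgfra, the receptor of fibroblasts, fell by 1.16, with a list median of 0.27 over 5 genes.

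Among smooth muscle regulators 2 of 5 rose, the median being 0.23. They were Klf4, a repressor of the contractile program, at 1.07 (SE 0.30, adjusted p = 0.0337), and Mkl1 at 0.39 (SE 0.10, adjusted p = 0.0273). Of 9 further contractile genes tested 2 rose, Pln by 1.17 (SE 0.14, adjusted p = 0.00211) and Kcnmb1 by 0.32 (SE 0.08, adjusted p = 0.0266), and the list median was -0.31. Among 6 further pericyte genes tested, with a median of 0.16, Mcam rose by 0.45 (adjusted p = 0.0170), a pass lost under quantile normalization (adjusted p = 0.0618), where Gucy1a3 (0.65, adjusted p = 0.0402) and Gucy1b3 (0.58, adjusted p = 0.0220) passed higher, and Vtn fell by 1.59 (SE 0.30, adjusted p = 0.00886). Foxs1, below the filter, was at 0.904 to 2.46 FPKM intact and 0.168 to 0.666 FPKM unsorted. Tbx18, also untested, was at 0.348 to 0.667 FPKM intact and 0.0965 to 0.163 FPKM unsorted. The ranges of the untested Abcc9, Higd1b and Kcnj8 overlapped between the groups, and Ndufa4l2 was listed at 0.

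Other cell types moved in both directions. Fibroblast genes fell in 6 of 9 tested, from sums of 997, 569, 623 and 526 FPKM intact, and macrophage genes in 6 of 8, from 92.4, 42.2, 43.8 and 46.1 FPKM. Skeletal muscle genes fell in 7 of 11, from 3938, 144, 86.9 and 86.4 FPKM intact to 75.2, 70.4, 109 and 89.9 FPKM unsorted. In intact replicate 1 Mylpf was the most abundant at 700 FPKM, and in the unsorted samples it was Pvalb, at 69.4 to 98.2 FPKM. The list fell in 7 of 8 tested when intact replicate 1 was left out, where Pvalb rose. Satellite glial genes rose in 3 of 5, from 552, 405, 390 and 420 FPKM intact, and neuronal genes in 5 of 10, or 2 of 10 under quantile normalization, from 4658, 4499, 4765 and 4866 FPKM. With limma 0 of 5 red blood cell entries passed (0 unadjusted), which are 4 genes, at 737, 358, 397 and 266 FPKM intact and 369, 400, 112 and 173 FPKM unsorted. The part of these cell types in the changes of the mural genes was not tested.

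Sorted samples against intact ganglia shares the sorted and the intact samples with the preceding comparisons and joins both steps. The mice per sample differ here too. Acta2 and Pdgfrb fell, Tagln was listed at 0 in the sorted samples and Rgs5 did not pass. Over 12234 tested genes 20.6% passed lower and 14.1% higher, with a median of -0.04. The mural genes tested were Acta2, Tagln, Pdgfrb and Rgs5, and Acta2 and Tagln entered the test through their intact levels alone, so no count of passes is read from them. Acta2 differed by -4.06 (SE 0.53, adjusted p = 3.25e-04, or 4.86e-04 with no filter) and Pdgfrb by -0.56 (SE 0.13, adjusted p = 0.00803), and no p is given for Tagln. Pdgfrb and, by its listed zeros, Tagln were called lower, against 10.7% of all tested genes, and 0 mural genes were called higher with limma (0 with an unadjusted p below 0.05), against 7.54%. For Acta2, Pdgfrb and Tagln every sorted sample lay below every intact one.

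Rgs5 was at 49.0 to 63.7 FPKM intact and 50.8 to 119 FPKM sorted, with overlapping ranges, and its log2 difference was 0.50 (SE 0.23, 95% interval -0.01 to 1.00, adjusted p = 0.121). It passed and was called higher without sorted replicate 1, at 0.71 (adjusted p = 0.0147), and in a fit with a replicate block (adjusted p = 0.0499). The call of Pdgfrb was lost without sorted replicate 3 and under quantile normalization (-0.31, adjusted p = 0.0707). Myh11, Cspg4 and Notch3 fell below the 1 FPKM filter, with means over the 8 samples of 0.821, 0.979 and 0.778 FPKM. Every sorted sample of these 3 genes was below every intact sample, with log2 differences of -3.13, -3.12 and -3.18 and an exact two-sided permutation p of 0.0286 each, the smallest possible.

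The gene lists were also unevenly affected in sorted against intact samples. Further contractile genes fell in 6 of 8 and rose in 1, with a median of -2.95, and 5 were called lower, or 3 without intact replicate 1, in which Tpm2 and Des were at 40.9 and 23.6 FPKM. Notch pathway genes fell in 8 of 10 with a median of -2.08, or in 6 of 9 under quantile normalization, where Jag2 passed higher. Further pericyte genes fell in 2 of 3 (Vtn at -6.49 and Anpep, a peptidase of the pericyte surface, at -3.14) with a median of -3.14, or in 1 of 2 without intact replicate 1. PDGF pathway genes fell in 1 of 3, Pdgfra, with a median of -0.15. With limma 0 of 5 smooth muscle regulators passed (0 unadjusted), with a median of 0.00, and without sorted replicate 2 Klf4 passed higher (0.82, adjusted p = 0.00947).

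With limma 0 of 12 endothelial genes passed in sorted against intact samples (2 with an unadjusted p below 0.05), with a median of 0.40, and that count depended on single samples. Without sorted replicate 2, 10 of 12 endothelial genes passed higher, among them Cldn5 at 1.83 (adjusted p = 2.86e-04) and Flt1 at 1.48 (adjusted p = 2.40e-04). Under quantile normalization 4 passed higher. Vwf passed lower without sorted replicate 4 (-0.93, adjusted p = 0.0163) and without sorted replicates 3 and 4 (-1.03, adjusted p = 0.0294). Fibroblast genes fell in 9 of 9, satellite glial genes in 4 of 5, macrophage genes in 5 of 5 and skeletal muscle genes in 9 of 11, or 4 of 11 without sorted replicates 3 and 4. Red blood cell genes rose in 7 of 7 entries, again 6 genes, and neuronal genes rose in 7 and fell in 1 of 10.

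Close relatives of the mural genes followed their own courses. Rgs4, which lies beside Rgs5 on chromosome 1 and encodes a related regulator, was at 367 to 384 FPKM unsorted and at 734, 930, 801 and 795 FPKM sorted, a log2 difference of 1.11 (SE 0.09, adjusted p = 9.33e-06). Tagln2, the relative of Tagln found outside muscle, rose by 0.80 (SE 0.09, adjusted p = 6.71e-05), while the neuronal relative Tagln3 fell by 1.53 (SE 0.11, adjusted p = 6.85e-06). The non-muscle myosin Myh9 rose by 0.56 (SE 0.08, adjusted p = 4.63e-04) and Myh10 fell by 1.91 (SE 0.13, adjusted p = 3.36e-06). Neither the beta-actin gene Actb nor the gamma-actin gene Actg1 passed between sorted and unsorted samples, at 517 to 653 against 617 to 632 FPKM and at 200 to 274 against 241 to 252 FPKM.

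Over all 16 relatives, 5 fell and 3 rose of 12 tested in sorted against unsorted samples, with a median of -0.28. In unsorted against intact samples 4 rose and 2 fell of 14, with a median of 0.18, and in sorted against intact samples 7 fell and 3 rose of 14, with a median of -0.64. Acta1 and Actc1, the skeletal and cardiac actins, were at 647 and 89.5 FPKM in intact replicate 1 alone. Under median-ratio size factors and under quantile normalization 6 relatives passed higher in sorted against intact samples.

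Over the 12 samples the pattern of the 7 genes split as their levels did. Described by Pearson correlation of log2(FPKM + 0.1), with samples that share 3 preparations, Rgs5 ran opposite to the other 6 genes, with coefficients from -0.692 to -0.581. Pairs among the other 6 genes had coefficients from 0.842 to 0.984. Their lower sorted levels, already given, enter each of these coefficients, for Tagln by its listed zeros. Between unsorted and intact samples the 6 genes did not move together, with log2 differences from -0.31 for Tagln to 1.32 for Myh11. Among 12283 genes, those most like the mean of the 7 were the collagen genes Col27a1 (0.990), Col28a1 (0.989) and Col12a1 (0.988), Sox10 (0.989), a transcription factor of glia, Nid2 (0.988), Rasa3 (0.988), Adamts5 (0.988), Postn (0.988), Cdh19 (0.987) and Slc7a2 (0.986). Sox10 averaged 23.3 FPKM intact, 26.1 FPKM unsorted and 0.772 FPKM sorted. Each group of 4 samples is too small for a coefficient of its own.

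Taken singly, the members had different nearest genes. Rgs5 was most like P2ry1, a receptor for extracellular ADP, which averaged 23.5, 18.7 and 45.1 FPKM in intact, unsorted and sorted samples (coefficient 0.972 over 12 samples). Tagln was most like Rarres2 (0.999), which encodes the chemoattractant chemerin and averaged 34.4 and 23.6 FPKM in intact and unsorted samples and was listed at 0 in all sorted ones. As both are listed at 0 in those samples, this coefficient rests mainly on shared listed zeros. Cspg4 was most like Sox10 (0.997), Notch3 like the Wnt receptor gene Fzd8 (0.997), Acta2 like Dock1 (0.993), Myh11 like Sec14l2 (0.989) and Pdgfrb like Fam69a (0.959).

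Smooth muscle genes that move together are often bound by serum response factor at the CArG box, so promoters were searched on both strands for exact matches to its consensus. Near matches, which differ from the consensus by a base or more, were not counted. RefSeq promoters on GRCm38.p6, from 250 bases before to 50 after the transcription start, were found for 4 of the 7 genes, Rgs5, Acta2, Cspg4 and Notch3, and not for the other 3. An exact match occurred in 535 of 32851 promoters (1.63%), in 0 of the 4, in 0 of 6 promoters of further pericyte genes and in 1 of 14 promoters of further contractile genes (7.14%), that of Myl9, where it starts 161 bases before the transcription start. The promoters of Acta2, which fell in sorted samples, and Rgs5, which rose, are shown beside that of Myl9, which fell and holds the exact match, in capitals. They lie at chr19:34255324-34255623 on the minus strand, chr1:169655251-169655550 on the plus strand and chr2:156775214-156775513 on the plus strand. A match describes letters in this window, and the absence of a match says only that these letters are not in it, not that the promoter lacks a working box.
Acta2: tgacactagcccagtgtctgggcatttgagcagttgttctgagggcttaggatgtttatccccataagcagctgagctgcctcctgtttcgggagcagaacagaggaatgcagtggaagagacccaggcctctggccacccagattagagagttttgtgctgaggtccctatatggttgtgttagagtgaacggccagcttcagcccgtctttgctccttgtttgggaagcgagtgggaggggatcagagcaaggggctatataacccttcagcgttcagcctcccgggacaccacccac
Rgs5: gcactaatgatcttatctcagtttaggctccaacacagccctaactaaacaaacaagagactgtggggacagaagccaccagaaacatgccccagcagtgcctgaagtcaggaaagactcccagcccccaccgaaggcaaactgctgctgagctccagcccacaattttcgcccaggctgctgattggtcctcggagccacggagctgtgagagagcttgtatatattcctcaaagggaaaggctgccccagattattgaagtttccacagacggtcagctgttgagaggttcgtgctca
Myl9: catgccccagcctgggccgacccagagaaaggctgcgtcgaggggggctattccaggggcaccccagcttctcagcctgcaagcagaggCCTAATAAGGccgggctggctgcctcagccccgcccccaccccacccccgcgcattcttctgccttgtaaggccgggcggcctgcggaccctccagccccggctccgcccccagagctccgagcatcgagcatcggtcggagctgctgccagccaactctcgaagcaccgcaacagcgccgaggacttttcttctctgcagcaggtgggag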

How the data were processed

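Polyadenylated RNA of 12 DRG samples was sequenced from directional libraries. The deposited values are FPKM, which the authors made with TopHat2 (up to 2 alignments a read, mm10), merging of lanes with SAMtools and Cufflinks 2.1.1. Whether strand was used in counting is not given in the sources used here. The study tested with CuffDiff, which needs aligned reads, so limma 3.58.1 in R 4.3.3 was used in its place, with trend, on log2(FPKM + 0.1), over genes that averaged 1 FPKM or more in the 8 samples compared, with Benjamini-Hochberg adjustment over all of them. Genes below that filter and ratios of genes were tested by exact two-sided permutation with scipy 1.17.1 in Python 3.11.15. The labels do not pair samples by number, and correlations between same-numbered samples of different groups ran from -0.157 to 0.071, so no replicate block was used. The test was checked on simulated data.

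The members and gene lists were chosen with earlier results of these data known. The named genes are the members, genes of 13 further lists, the 10 genes most like the mean of the members and the gene most like each member, and outside these Pcsk7, Gm48529 and Gm17276, which overlap a member, and Trmt112, an example of a gene listed at 0. Where a gene of a list gained or lost a pass under an alternative, the text names it for part of the lists only. Depth was estimated from the spacing of low FPKM values, and fragment numbers carry counting error only. Alternatives were the pseudocount (0.01 or 1 FPKM), the filter (none, or 5 FPKM), the scaling (median-ratio size factors, quantile normalization, red blood cell genes removed), a fit of all 12 samples, a replicate block, no trend, other criteria for a call, unsorted replicates 1 and 2 averaged, sorted replicates 3 and 4 left out, and each sample left out in turn. The sequence reads were not used here, and the results of 1 further list are not reported here.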

Additional observations from a re-analysis of the deposited data

Results flagged for a closer look

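In a search for samples far from the others of their group, 26 groups of 4 samples were tested for the 7 genes and the 3 ratios, and 2 had an extreme sample by Dixon's test. Chance gives about 1 in 20 groups. Myh11 was at 0.357 FPKM in sorted replicate 4, against 0.0112, 0.0585 and 0.0354 FPKM in the other sorted samples. Cspg4 was at 0.436 FPKM in sorted replicate 4, against 0.0825, 0.0476 and 0.0577 FPKM. The cause was not tested.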

How the results depend on the processing

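Among the 7 genes, the differences of sorted from unsorted samples kept their direction and their side of the threshold in every alternative that gave a value, with ranges of -5.97 to -2.83 for Acta2, -5.78 to -2.14 for Myh11, -5.62 to -1.73 for Notch3, -4.17 to -1.39 for Cspg4, -0.63 to -0.32 for Pdgfrb and 0.61 to 1.09 for Rgs5. Of the results that answer a comparison, 251 values under alternatives kept their direction and side of the threshold or, for counts, stayed within 1.5 times the reported count, 26 counts moved further and 27 took a p above its threshold. For other results 382 values held by the same measure, 42 lost a pass, 8 each for Myh11, Cspg4 and Notch3 in sorted against intact samples, where fewer samples cannot reach the threshold in the exact test, 2 gained one, 9 counts moved further and 4 changed the sign of Pdgfrb. With limma Cspg4 passed lower there without sorted replicate 2, without 4 and without 3 and 4, and Myh11 without 3 and 4. Both reached the filter through their intact levels alone, so these passes are no support for a fall.

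In sorted against unsorted samples, 3 members and 3 further contractile genes were called lower, and 6 of each when the level criterion was 1 FPKM or by adjusted p alone. Further pericyte genes numbered 2, and 1 with the 5 FPKM filter, a log2 ratio beyond 1 or unsorted replicates 1 and 2 averaged, with 1 to 2 when single samples were left out, 1 being without unsorted replicate 1 or 2. All genes called numbered 2486, then 1139 with a log2 ratio beyond 1 and 5592 by adjusted p alone. In unsorted against intact samples they numbered 873, then 165, 1349 (mean above 1 FPKM) and 2793 (adjusted p alone), and 579 to 885 with single samples left out, the lowest without unsorted replicate 3. By adjusted p alone 1 member was lower. Pdgfrb, near 0 with all samples, turned to 0.00895 under quantile normalization and ran from -0.0579 to 0.0553 with single samples left out, above 0 without intact replicate 3 (0.0553) or unsorted replicates 3 (0.0412) or 4 (0.0342).

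In sorted against intact samples 2 members were called lower, and 1 under quantile normalization, a log2 ratio beyond 1 or without sorted replicates 3 and 4, with 1 to 2 when single samples were left out, 1 being without sorted replicate 3. All genes called numbered 2235, then 1011 with a log2 ratio beyond 1 and 4252 by adjusted p alone. Further pericyte genes numbered 1, and 2 with a mean above 1 FPKM or adjusted p alone. Further contractile genes numbered 5, and 3 without sorted replicates 3 and 4, with 3 to 5 when single samples were left out, 3 being without intact replicate 1. Where a criterion changed, the criterion sets the count, and otherwise the cause was not tested. With unsorted replicates 1 and 2 averaged the ratios differed by 1.09, 1.29 and 1.22, and with single samples left out by 0.97 to 1.23, 1.23 to 1.49 and 1.12 to 1.31, with an exact p of 0.0571, the smallest that 3 against 4 samples allow.

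Scaling moved the balance of calls. In sorted against unsorted samples 1505 of all genes were called lower and 981 higher, against 1285 and 1382 under quantile normalization, where the median over all genes was 0.10. In sorted against intact samples the median became 0.13. Under each scaling no gene of the lists that had passed changed its direction. Depth limits the sorted levels of Acta2, Tagln, Myh11, Cspg4 and Notch3, which rest on 0 to 51 estimated fragments.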
